A study of Mus musculus with 12 samples.

Results

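Kdr, Etv2, Tal1, Lmo2, Gata2, Sox18, Cdh5 and Pecam1 were followed in mouse gastruloids as genes of endothelial and blood progenitors. These 8 of 38911 genes were chosen by name, and the level of a gene is the sum of the counts of its RefSeq transcripts. Gastruloids were aggregates of E14TG2a cells, a mouse embryonic stem (ES) cell line labelled as 2iLIF (kinase inhibitors with the cytokine LIF) in all samples, and were treated from day 3 and harvested on day 4. Before day 3, by the authors' methods, each gastruloid had received a Wnt agonist meant to induce a mesodermal fate. The groups received medium without glucose (0×), with 1× glucose (21.25 mM), with 3× glucose (63.75 mM), or with 5 mM 2-DG (2-deoxy-D-glucose, a glucose analog that hexokinase phosphorylates) in 1× glucose. Each group had 3 libraries of polyA RNA, 1 from each of ES cell passages 13, 15 and 16, and each library pooled many gastruloids of 1 passage. All 12 libraries come from the same cell line without a genetic change, so the model is limited to this line and to a single day.

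Endothelial and blood cells arise together from lateral and extraembryonic mesoderm. The ETS factor Etv2 starts this programme and acts directly on genes such as Kdr, which encodes the VEGF receptor VEGFR2. Tal1 (also Scl) is a bHLH factor that binds DNA with E proteins, and the LIM-only protein Lmo2, which does not bind DNA itself, bridges it to GATA factors such as Gata2 and to Ldb1. Sox18 is a SoxF factor of endothelium, and Cdh5 (VE-cadherin) and Pecam1 (CD31) are adhesion proteins of endothelial junctions. Outside these lineages, Pecam1 is also found on pluripotent cells, Tal1 and Gata2 in spinal interneurons, Gata2 in surface ectoderm and trophoblast, and Lmo2 in early mesoderm and other tissues.

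By the RefSeq annotation of GRCm38.p6, Kdr lies at chr5:75932827-75979072, Etv2 at chr7:30633616-30636509, Tal1 at chr4:115056426-115071755 and Lmo2 at chr2:103957903-103981878. Gata2 lies at chr6:88193891-88207032, Sox18 at chr2:181669837-181671640, Cdh5 at chr8:104101613-104144504 and Pecam1 at chr11:106654213-106715281. Non-coding genes overlap 5 of the 8. Of these, Gm38515 inside Lmo2 held 4427 counts against 19126 for Lmo2, while the lncRNAs overlapping Kdr, Tal1, Gata2 and Cdh5 held 2, 11, 20 and 0 counts. The library kit keeps strand (NEBNext Ultra II Directional). Whether the counting used strand is not given in the sources used here, so reads of Lmo2 and Gm38515 may not be separable.

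The stretches before the annotated starts of Kdr, Etv2 and Tal1 are shown because these 3 genes were all lower with 2-DG once the passage was taken into account, and RefSeq promoter sequences were at hand for them. They are 247, 250 and 250 bases on GRCm38.p6, at chr5:75978459-75978705 (minus strand), chr7:30635853-30636102 (minus strand) and chr4:115057561-115057810 (plus strand). Each is written 5′ to 3′ up to the start of 1 transcript. That transcript held 99.1% of the counts of Kdr, 51% of those of Tal1 and only 26.8% of those of Etv2. The Etv2 transcript with the other 73.2% could not be placed, so its own start region is not shown. No exon of GENCODE M21 lies in the stretches of Kdr and Etv2, and that of Tal1 was not trimmed for exons. Models of all 3 genes reach further upstream. The lncRNA Gm32727 runs through the stretch of Kdr, and Gm33786 (chr4:115057622-115059310) covers part of that of Tal1. Capitals mark GGAA, the core bound by ETS factors, on either strand.
Kdr: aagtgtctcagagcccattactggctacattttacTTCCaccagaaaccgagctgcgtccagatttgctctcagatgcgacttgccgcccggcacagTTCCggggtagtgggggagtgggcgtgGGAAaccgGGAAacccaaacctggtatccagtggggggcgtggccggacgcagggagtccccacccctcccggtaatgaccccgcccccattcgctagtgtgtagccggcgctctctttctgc
Etv2: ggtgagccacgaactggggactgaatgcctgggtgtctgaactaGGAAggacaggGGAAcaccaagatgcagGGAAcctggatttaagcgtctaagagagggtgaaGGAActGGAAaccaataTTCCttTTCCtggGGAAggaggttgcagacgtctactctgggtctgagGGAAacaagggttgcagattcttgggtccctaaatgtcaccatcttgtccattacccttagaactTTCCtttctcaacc
Tal1: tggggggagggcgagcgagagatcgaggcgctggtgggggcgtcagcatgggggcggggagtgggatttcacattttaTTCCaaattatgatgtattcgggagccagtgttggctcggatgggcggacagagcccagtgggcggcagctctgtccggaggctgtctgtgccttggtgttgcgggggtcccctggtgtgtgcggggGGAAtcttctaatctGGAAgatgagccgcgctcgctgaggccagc
The letters GGAA, counted on both strands, occurred 4 times in the Kdr stretch, 10 times in that of Etv2 and 3 times in that of Tal1. Among 32851 RefSeq promoter windows of 250 bases, 93.4% held GGAA at least once, 54.7% at least 3 times, 33.4% at least 4 times and 0.192% at least 10 times. The letters AGATAA, which Gata2 and its relatives bind, were in none of the 3 stretches and in 9.99% of the windows. The E-box letters CANNTG were found once, in the Kdr stretch, and in 66.2% of the windows.

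The libraries held 31902471 to 45956080 counts, and levels are given as counts per 1000000 (CPM). Of all 38911 genes, 16966 passed the filter on low counts and were tested, among them 7 of the 8 genes described here. Sox18 was below it, with 0 to 14 counts per library. Passage 13 stood apart from the others across the transcriptome: 7084 genes (41.8%) differed between passages 15 and 13 and 6817 (40.2%) between 16 and 13, against 713 (4.2%) between 16 and 15.

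Lmo2 was by far the most abundant of the 8. Per length (CPM divided by the length in kb of a transcript of the gene placed by GENCODE M21), Lmo2 stood at 34.0 ± 6.91 in 1× glucose (SD, n = 3), Etv2 at 1.34 ± 0.232, Kdr at 0.631 ± 0.461 and Tal1 at 0.290 ± 0.162. Pecam1, Cdh5, Gata2 and Sox18 followed at 0.123, 0.117, 0.101 and 0.0945 CPM per kb. The ranges of these last 4 overlapped over the passages, as did those of Kdr and Tal1, and genes were not compared within passages. The Lmo2 and Etv2 levels did not overlap those of any other gene. The Etv2 length is that of NM_007959.2, which held 26.8% of its counts. Its lowest value, 1.13, was close to the highest of Kdr, 1.04 CPM per kb, so that gap depends on the length. The transcript used for Cdh5 held 0 of its counts. With 2-DG the order changed below Etv2: Lmo2 was at 5.53 ± 3.01 and Etv2 at 0.465 ± 0.0818, followed by Pecam1 at 0.165, Gata2 at 0.102, Kdr at 0.0836 and Tal1 at 0.0795 CPM per kb. Sox18 and Cdh5 were lowest, at 0.0293 and 0.00889 CPM per kb. The ranges of Pecam1, Gata2, Kdr and Tal1 overlapped with one another there, so their order is not beyond the spread.

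The first question was how these genes stood with 2-DG. Against 1× glucose, 2 of the 7 tested genes passed the test of edgeR without a term for the passage (adjusted p under 0.05), Lmo2 and Etv2, both lower, where 17.6% of all genes were called and 8.51% were called lower. With the passage as a replicate block, which compares libraries of the same passage, 5 of the 7 were called lower (Lmo2, Etv2, Kdr, Tal1 and Cdh5), where 41.3% of all genes were called and 20.2% were called lower. The median log2 fold change of the 7 was -1.85, beside 0.0023 over all tested genes. Gata2 and Pecam1 were not called in either fit. RNA came from whole gastruloids, so fewer cells of a type and less RNA per cell cannot be told apart.

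Lmo2, the bridge of the Tal1 complex, fell from 63.2, 42.3 and 50.5 CPM in the 1× glucose libraries of passages 13, 15 and 16 to 4.16, 7.87 and 13.3 CPM with 2-DG. The lowest of the 9 libraries without 2-DG stood at 42.3 CPM, so the groups did not overlap. The log2 fold change was -2.62 ± 0.36 (SE), a 6.14-fold lower level (edgeR, adjusted p = 0.00114). Leaving out any of the 6 libraries compared kept it under the threshold (adjusted p of 0.000909 to 0.00871).

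Etv2, which starts the programme, was at 1.36, 1.18 and 1.66 CPM in 1× glucose and at 0.439, 0.436 and 0.586 CPM with 2-DG, in the order of passages 13, 15 and 16. All 3 libraries with 2-DG lay under the lowest of the 9 others, at 0.884 CPM. Its level fell 2.87-fold, with a log2 fold change of -1.52 ± 0.40 (edgeR, adjusted p = 0.0254). These CPM come from 45 to 77 counts against 15 to 22. The call was lost (adjusted p of 0.0504 to 0.0867) without the 1× glucose library of passage 13 or 16 or without any single 2-DG library, and held at 0.0460 without the 1× glucose library of passage 15. In the fit that blocks on passage, its adjusted p was 4.77e-04.

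Kdr, the VEGF receptor, was at 0.769, 4.32 and 6.14 CPM in 1× glucose and at 0.351, 0.681 and 0.453 CPM with 2-DG. Its 2-DG libraries were all lower than any other library, while its level in 1× glucose was far lower in passage 13 than in passages 15 and 16. The log2 fold change was -2.90 ± 0.95, 7.49-fold lower, and missed the threshold without the passage term (edgeR, adjusted p = 0.0595). Blocking on passage gave -2.76 ± 0.34, which was called (adjusted p = 1.31e-04), and DESeq2 without the block also called it (adjusted p = 0.0126). It was called without the 1× glucose library of passage 13 (adjusted p = 0.0303) and in none of the other 5 fits that leave out 1 library.

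Tal1 was at 0.395, 1.29 and 1.53 CPM in 1× glucose, and at 0.293, 0.218 and 0.373 CPM with 2-DG. The values of these 2 groups did not overlap, though that of 1× glucose in passage 13 was close to the 2-DG values. Against the other glucose libraries they did overlap: in passage 13 Tal1 was at 0.316 CPM at 0× and 0.174 CPM at 3× glucose. The log2 fold change was -1.85 ± 0.92 and was not called (edgeR, adjusted p = 0.198), but it was called when the passage was blocked (adjusted p = 0.0103). Tal1 counts ranged from 18 to 71 per library in 1× glucose and from 8 to 14 with 2-DG.

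Cdh5, the junction cadherin, had 0, 27 and 32 counts in the 1× glucose libraries of passages 13, 15 and 16 and 0, 0 and 4 counts with 2-DG. Both groups were at 0 in passage 13, so the difference rests on passages 15 and 16. The fitted log2 fold change of -3.54 ± 1.66 depends on these few counts (edgeR, adjusted p = 0.173, and 0.0175 when the passage was blocked). In passage 16 the ratio was 6.49 (95% counting interval 2.30 to 25.3). Sox18 had 10, 5 and 5 counts in 1× glucose and 3, 2 and 0 with 2-DG. It was below the filter in this fit, and without any filter it was not called (log2 fold change -1.67, edgeR adjusted p = 0.336).

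Gata2 and Pecam1 gave no call. Gata2 was at 0.176, 0.500 and 0.411 CPM in 1× glucose and at 0.293, 0.245 and 0.559 CPM with 2-DG, with a log2 fold change of 0.03 ± 0.49 (edgeR, adjusted p = 0.977). The sign of this value turned when some libraries were left out. Pecam1 was at 0.549, 0.421 and 0.302 CPM in 1× glucose and at 0.732, 0.654 and 0.320 CPM with 2-DG, so the 2-DG library was the higher in each passage. The log2 fold change was 0.42 ± 0.42 (edgeR, adjusted p = 0.554). These genes had 8 to 25 counts per library in these groups, so that small differences were not detectable at this depth.

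**Figure D1:**
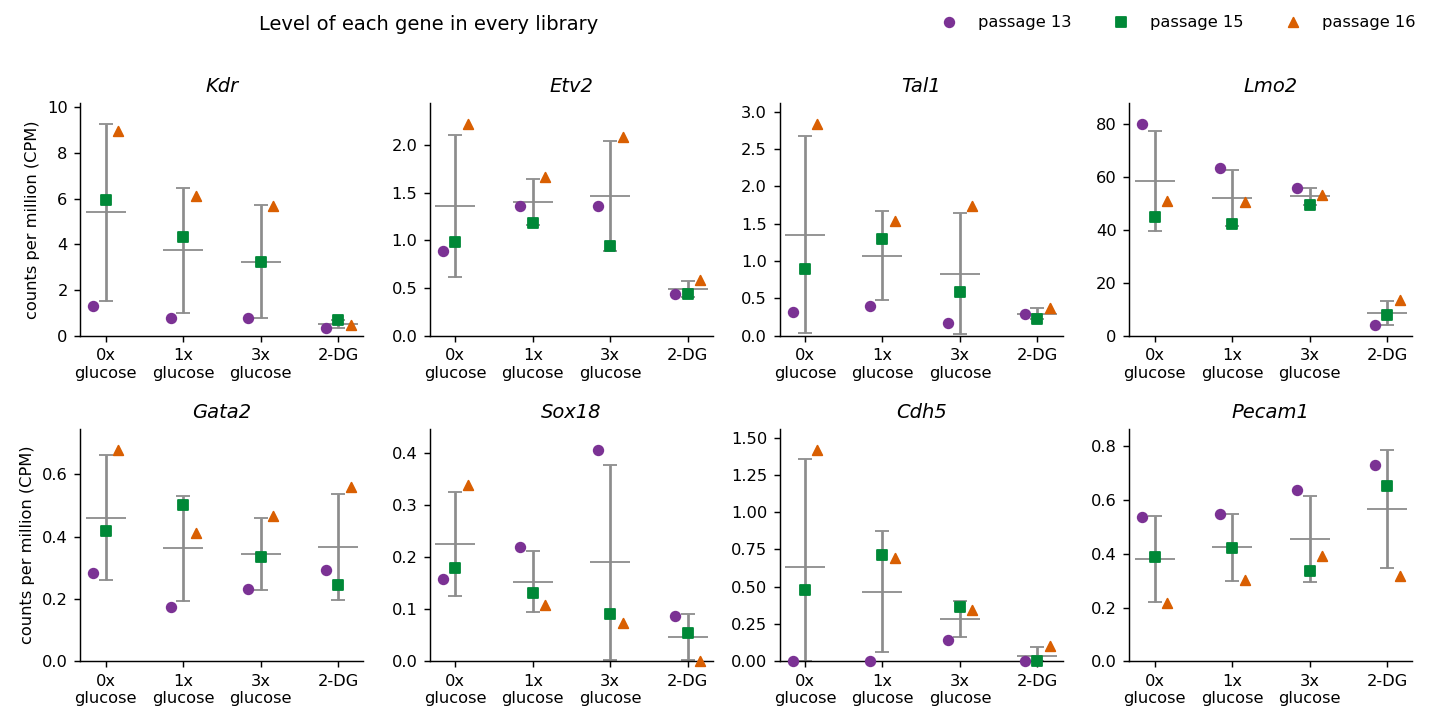
Level of each gene in CPM (vertical axes, linear, each from 0) in the 12 libraries, by treatment (horizontal axes). Symbols are single libraries of ES cell passages 13, 15 and 16, and grey lines are the mean and SD of 3 libraries, clipped at 0; the 3 Lmo2 values with 2-DG are at most 13.3 CPM while all others are at least 42.3 CPM, and Kdr in 1× glucose runs from 0.769 CPM in passage 13 to 6.14 CPM in passage 16.

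The passages can be set side by side in the libraries of 1× glucose and 2-DG. The ratio of 1× glucose to 2-DG for Lmo2 was 15.2 in passage 13, 5.37 in passage 15 and 3.79 in passage 16. For Kdr it was 2.19, 6.33 and 13.6, with 95% counting intervals of 1.11 to 4.63, 4.14 to 10.1 and 8.31 to 23.6. Lmo2 was thus furthest apart where Kdr was closest. Etv2 gave ratios of 3.10, 2.72 and 2.84, whose intervals overlap widely. For Tal1 the ratio was 1.35 in passage 13, with an interval of 0.591 to 3.27 that includes no difference, 5.92 in passage 15 and 4.11 in passage 16. These intervals cover counting error only, with 1 library on each side.

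The difference between passages was then tested with the 9 libraries of the 3 glucose groups pooled, in an interaction fit chosen after the data were seen. Each passage has a single 2-DG library, so the spread in this fit comes from the glucose libraries alone, and the lone 2-DG libraries are assumed to vary like them. Under that assumption the log2 fold change of Lmo2 passed the test of a difference between passages (edgeR, adjusted p = 0.0220), where 0.36% of all genes were called. Its log2 fold change against the glucose libraries was -3.99 ± 0.22 in passage 13, -2.53 ± 0.20 in passage 15 and -1.95 ± 0.18 in passage 16. For Kdr the values were -1.39 ± 0.59, -2.72 ± 0.47 and -3.92 ± 0.50, and this difference did not pass (adjusted p = 0.509, unadjusted p = 0.0371 in the edgeR fit). The other 5 tested genes did not pass either. Passage and 2-DG library cannot be told apart here, and the Lmo2 call was lost without the 1× glucose library of passage 16 (adjusted p = 0.0612).

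**Figure D2:**
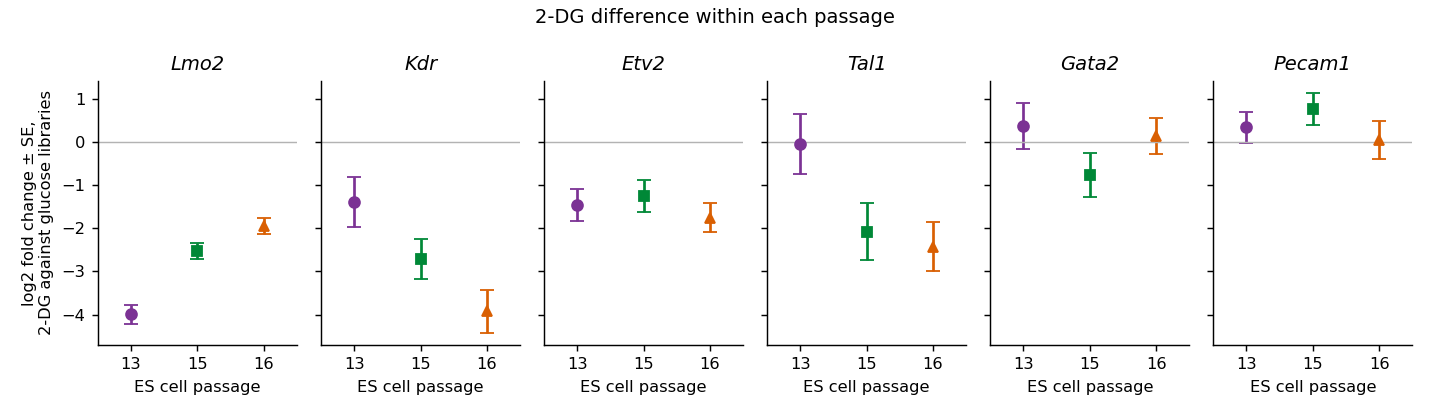
Log2 fold change of 2-DG against the 3 glucose libraries of the same passage (vertical axis, with SE from the edgeR fit) for passages 13, 15 and 16 (horizontal axes). Lmo2 runs from -3.99 in passage 13 to -1.95 in passage 16 and Kdr from -1.39 to -3.92, while Etv2 stays between -1.25 and -1.75.

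Lmo2 has RefSeq transcripts with an upstream start and with downstream starts 12134 bases and more further on. The transcript NM_001142336.1, placed by GENCODE M21 at the start chr2:103957995, held 75.2% of the Lmo2 counts. NM_008505.4 and NM_001142335.1, with starts at 103970223 and 103970129, held 11% and 5.5%, and a transcript that could not be placed held the rest. In 1× glucose the upstream transcript had 54.9, 25.8 and 39.7 CPM in passages 13, 15 and 16, and with 2-DG it had 0, 5.04 and 5.01 CPM. That 0 was apportioned by software in a library with 142 Lmo2 counts in all, so it does not show that no read came from that start. The downstream transcripts together had 5.91, 10.1 and 7.63 CPM in 1× glucose and 3.95, 2.53 and 6.45 CPM with 2-DG. The ranges of the groups were far apart for the upstream start and overlapped for the downstream starts, though the downstream level was also the lower with 2-DG in each of the 3 passages. The share of Lmo2 counts at the upstream start was 61.1% to 87.9% in the 9 glucose libraries and 0%, 64.0% and 37.6% with 2-DG. In passage 15 it was thus close to the 61.1% of 1× glucose.

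Tested by transcript, where 0.288% of 46254 transcripts were called, no Lmo2 transcript passed. The log2 fold change was -3.59 ± 1.32 for the upstream transcript (edgeR, adjusted p = 0.437). For the downstream NM_008505.4 and NM_001142335.1 it was -0.67 ± 0.42 and -1.35 ± 0.50 (adjusted p = 0.70 and 0.445), and for the transcript that could not be placed -2.33 ± 0.83 (adjusted p = 0.419), all in the edgeR fit. The split of reads between transcripts was estimated by the authors' software and can move counts between models of a gene. For Etv2, XM_006539541.2 held all counts of 7 glucose libraries and NM_007959.2 those of the other 2 glucose libraries and of all 3 libraries with 2-DG, so its transcripts give no comparison of starts.

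**Figure D3:**
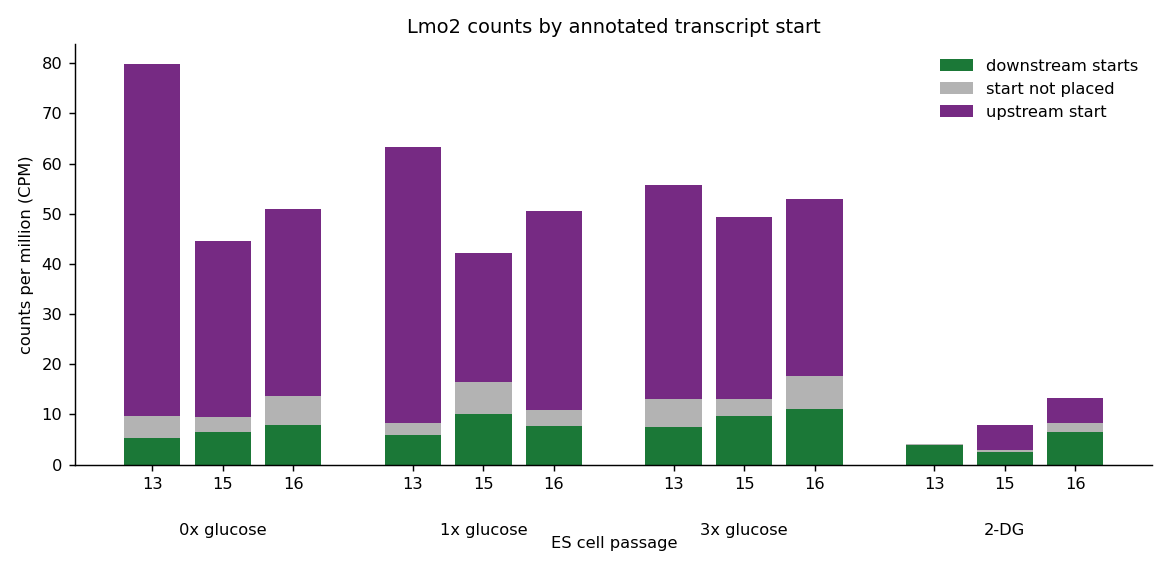
Lmo2 level in CPM (vertical axis, from 0) in each library, stacked by the annotated start of the transcript, with libraries grouped by treatment and labelled by ES cell passage (horizontal axis). The upstream start makes up 61.1% to 87.9% of the bar in the glucose libraries, and its part is 0 to 5.04 CPM with 2-DG.

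Gm38515, the lncRNA inside Lmo2, was at 14.7, 9.97 and 12.1 CPM in 1× glucose and at 0.586, 1.20 and 2.66 CPM with 2-DG. Its levels and those of Lmo2 had a Pearson correlation of 0.998 over the 12 libraries (log2 CPM). Since the 2 genes share their interval, the values may count the same reads.

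The study also varied glucose itself. Against 1× glucose, none of the 7 tested genes was called at 0× glucose, where edgeR called 0.0118% of all genes, or at 3× glucose, where it called 0%. At an unadjusted p under 0.05, 0 of the 7 passed in either comparison, against 1.8% and 1.05% of all genes, and DESeq2 also called 0 of the 7. Lmo2 was at 79.8, 44.6 and 50.9 CPM at 0× and at 55.6, 49.3 and 52.9 CPM at 3×, with log2 fold changes against 1× glucose of 0.17 ± 0.33 and 0.02 ± 0.33. Etv2 differed by -0.04 ± 0.37 and 0.06 ± 0.37 on the same scale. Kdr differed by 0.53 ± 0.82 and -0.21 ± 0.83, so that its interval was wide, and its level was the highest of the 3 glucose groups at 0× in every passage. Many of these near-zero values turn sign when 1 library is left out.

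In the direct comparison of 2-DG with 0× glucose, 3 of the 7 tested genes were called lower (Lmo2, Etv2 and Kdr), where 18.9% of all genes were called and 9.04% were called lower. Log2 fold changes were -2.79 ± 0.36 for Lmo2 (edgeR, adjusted p = 7.51e-04), -1.48 ± 0.40 for Etv2 (adjusted p = 0.0281) and -3.44 ± 0.96 for Kdr (adjusted p = 0.0308). When the passage was blocked, Tal1 (adjusted p = 0.00653) and Cdh5 (adjusted p = 0.00961) were called too, 5 in all and all lower, where 43.1% of all genes were called and 21.5% were called lower. This comparison shares its 2-DG libraries with the one above. Lmo2 remained called without any single library. Kdr was called only without the 0× library of passage 13 (other adjusted p of 0.0703 to 0.100) and Etv2 only without that of passage 13 or 15 (other adjusted p of 0.0546 to 0.104).

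**Figure D4:**
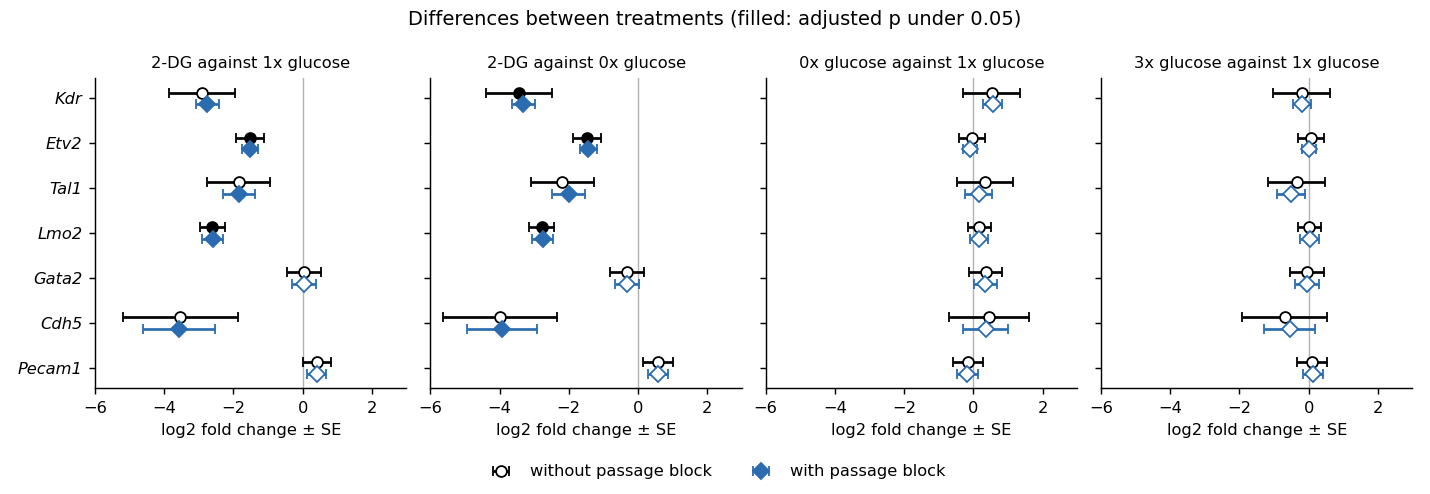
Log2 fold changes with SE (horizontal axes) of the 7 tested genes in 4 comparisons, from edgeR fits without (black circles) and with (blue diamonds) the passage as a block; filled symbols have an adjusted p under 0.05. Filled diamonds mark 5 genes in both comparisons of 2-DG and none in the comparisons of glucose concentrations.

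Without the 4 libraries of passage 13, a setting chosen after the data were seen, Lmo2 (log2 fold change -2.13, edgeR adjusted p = 8.28e-04), Kdr (-3.20, adjusted p = 0.00172) and Cdh5 (-3.62, adjusted p = 0.0234) were called lower with 2-DG than with 1× glucose. Etv2 (-1.48, adjusted p = 0.0771) and Tal1 (-2.25, adjusted p = 0.0588) missed the threshold there.

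Most of these genes also differed between ES cell passages. The labels give the 4 libraries of a passage the same passage number and name no batch, so a shared batch of cells is an assumption. The passage number and any such batch or experiment cannot be told apart, and the p-values measure the spread between libraries within passages. In a fit with treatment as the other term, 6 of the 7 tested genes differed between the 3 passages, all but Lmo2, where 46.2% of all genes did. In passage 16 against 13, 5 were higher and 1 lower, where 20.4% and 19.7% of all genes were. In passage 15 against 13, 3 were higher (Kdr, Tal1 and Cdh5; 20.8% of all genes), and in passage 16 against 15, 1 was (Etv2; 2.19%). Kdr was 6.13-fold higher in passage 16 than in passage 13 (log2 fold change 2.62 ± 0.27, edgeR adjusted p = 4.98e-05) and 4.35-fold higher in passage 15 than in 13, and neither call was lost without any single library. In the glucose libraries alone its mean was 0.939 ± 0.307 CPM in passage 13, 4.50 ± 1.37 in passage 15 and 6.94 ± 1.78 in passage 16 (SD, n = 3 each). These ranges did not overlap between passage 13 and the other two.

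Tal1 was 5.07-fold higher in passage 16 than in 13 (log2 fold change 2.34 ± 0.39, edgeR adjusted p = 8.93e-04), from a mean of 0.295 CPM in the glucose libraries of passage 13 to 2.04 CPM in those of passage 16. Its most abundant transcript alone gave -0.17, since the counts of Tal1 shift between transcript models from library to library. Cdh5 had 0, 0 and 5 counts in the glucose libraries of passage 13, against 12 to 27 in passage 15 and 14 to 46 in passage 16, and its call over the 3 passages was lost without the 1× library of passage 13 (adjusted p = 0.0550 in the edgeR fit). In passage 15 against 13, the call of Tal1 was lost without any glucose library of passage 13 or 15 or the 2-DG library of passage 15 (edgeR, adjusted p up to 0.178), and that of Cdh5 without the 0× or 1× library of passage 13 or the 1× library of passage 15 (edgeR, adjusted p up to 0.0784). Etv2 was 1.58-fold higher in passage 16 than in 13 and 1.79-fold higher than in 15 (edgeR, adjusted p = 0.0143 and 0.0355), and DESeq2 called neither (adjusted p = 0.0800 and 0.143). The first call held in 9 of the 12 fits that leave out 1 library and was lost without the 0× library of passage 13 or 16 or the 3× library of passage 16 (edgeR, adjusted p up to 0.0576). The second held in 4 and was lost without the 1× or 3× library of passage 13 or any glucose library of passage 15 or 16 (edgeR, adjusted p up to 0.149). Gata2 was 2.14-fold higher in passage 16 than in 13 (adjusted p = 0.0163 in the edgeR fit).

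Pecam1 differed in the other direction. Its level was 0.575 ± 0.0555 CPM in the glucose libraries of passage 13, 0.382 ± 0.0433 in passage 15 and 0.303 ± 0.0878 in passage 16, and it was 1.97-fold lower in passage 16 than in 13 (log2 fold change -0.98 ± 0.25, edgeR adjusted p = 0.00980). Over the 3 passages, DESeq2 called neither Gata2 nor Pecam1 (adjusted p = 0.203 and 0.198). Gata2 kept its call in 4 of the 12 fits that leave out 1 library (adjusted p up to 0.124 in edgeR) and lost it without any glucose library of passage 13, the 0× or 3× library of passage 15 or 16, or the 2-DG library of passage 16. Pecam1 kept it in 6 (adjusted p up to 0.0707 in edgeR) and lost it without any glucose library of passage 13 or the 0×, 1× or 2-DG library of passage 16. Lmo2 missed the threshold (adjusted p = 0.410 in the edgeR fit). It passed without the 2-DG library of passage 13 (adjusted p = 0.00569) and without all 2-DG libraries (adjusted p = 0.00414), a setting in which Gata2 and Pecam1 lost theirs (edgeR, adjusted p = 0.0539 and 0.0775). In the glucose libraries the mean of Lmo2 was 66.2 ± 12.4 CPM in passage 13, 45.4 ± 3.56 in passage 15 and 51.4 ± 1.31 in passage 16 (SD, n = 3 each). Sox18 was not tested, with 3 to 14 counts in the glucose libraries.

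**Figure D5:**
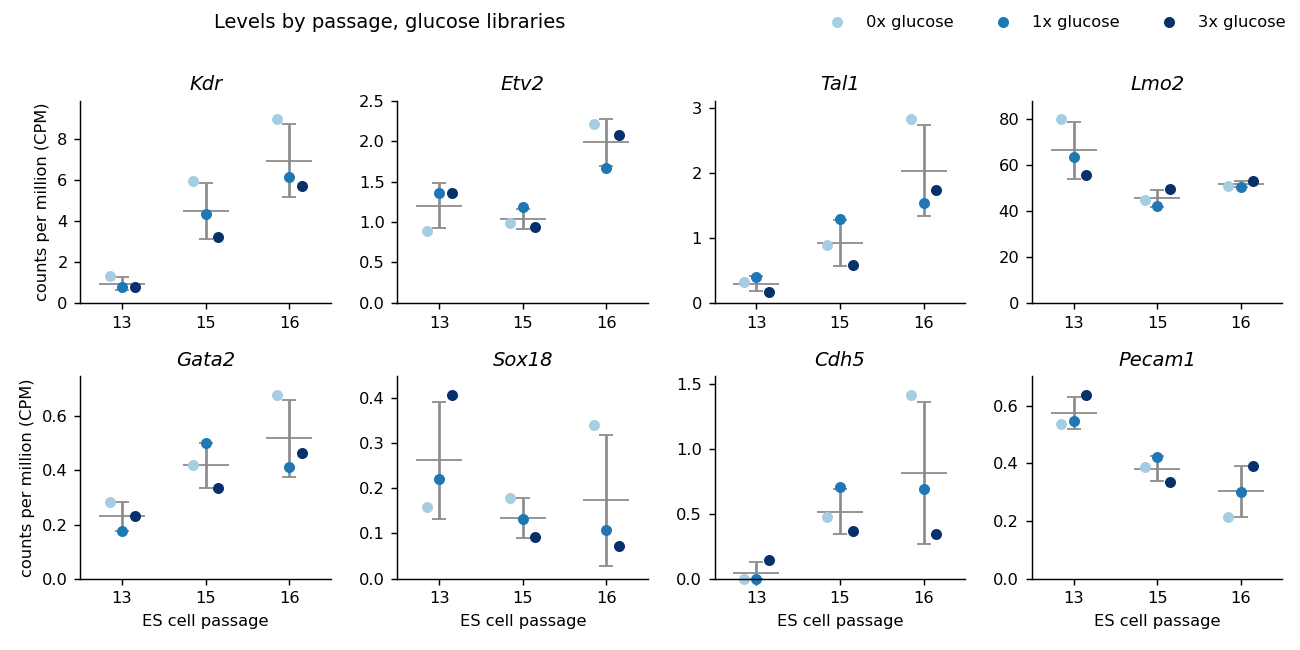
Level of each gene in CPM (vertical axes, linear, each from 0) in the 9 libraries without 2-DG, by ES cell passage (horizontal axes). Points are single libraries of 0×, 1× and 3× glucose, and grey lines are their mean and SD, clipped at 0; Kdr, Tal1 and Cdh5 are low in all 3 libraries of passage 13 and Pecam1 is high there.

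Other transcription factors of the endothelial and blood programme made up a list of 28 genes, of which 23 were tested. With 2-DG, 3 were called lower than in 1× glucose and 0 higher, with a median log2 fold change of -0.08. They were Elk3, an ETS factor (-0.87 ± 0.12, edgeR adjusted p = 0.00133), Ets2 (-1.14 ± 0.19, adjusted p = 0.00320) and Ldb1, the partner of Lmo2 (-0.18 ± 0.04, adjusted p = 0.0132, but 0.78 from its most abundant transcript alone). Ets2 was at 165 ± 28.5 CPM in 1× glucose and 74.9 ± 11.4 CPM with 2-DG. These 3 of 23 stand beside 8.51% of all genes called lower. With the passage as a block, 8 were lower and 1 higher, beside 20.2% and 21.1% of all genes. Fli1 and Sox17, picked after the values were seen, missed the threshold without the block (edgeR, adjusted p = 0.430 and 0.757). They were called lower with it (adjusted p = 0.00448 and 0.0314). The gene called higher with the block was Myb (edgeR, adjusted p = 0.0348). Erg, Sox7, Runx1 and Hhex were called in neither fit (edgeR with the block, adjusted p = 0.142, 0.288, 0.860 and 0.865). Between passages 16 and 13, 12 of the 23 were higher and 0 lower, where 20.4% of all genes were called higher.

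Of 31 endothelial receptor, junction and surface genes, 24 were tested and 6 were lower with 2-DG than in 1× glucose, 0 higher (median log2 fold change -0.42; with the passage as a block 9 lower and 2 higher). Of all genes, 8.51% were lower, and 20.2% with the block. By lowest p these were Notch4 (-1.10 ± 0.19, edgeR adjusted p = 0.00358), Mmrn2 (-1.05 ± 0.23, adjusted p = 0.0114), Egfl7 (-0.48 ± 0.13, adjusted p = 0.0259) and Flt4, the receptor of VEGF-C (-0.92 ± 0.25, adjusted p = 0.0280). Egfl7 was the most abundant of the 4 per library, at 14.5 to 16.5 CPM in 1× glucose and 10.7 to 11.6 CPM with 2-DG. The VEGF receptor Flt1 was at 0.593 to 2.74 CPM in 1× glucose and at 0.381 to 0.817 CPM with 2-DG (log2 fold change -1.62 ± 0.64, adjusted p = 0.110, and 0.00471 with the block). Emcn, a gene of mature endothelium, had 0 counts in every library of both groups.

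No ligand of these receptors was called lower. All 9 VEGF, angiopoietin and apelin genes of the list were tested, and 1 was called, Vegfb, which was higher with 2-DG, as were 9.12% of all genes (0.42 ± 0.11, edgeR adjusted p = 0.0275) at 52.9 ± 6.12 CPM in 1× glucose and 70.8 ± 4.37 CPM with 2-DG. Vegfa, the main ligand of Kdr, was at 61.1 ± 6.18 and 88.8 ± 21.8 CPM (0.54 ± 0.17, adjusted p = 0.0542, and 0.00153 with the passage as a block). The median of the list was 0.14. With the block, 3 of the 9 were higher and 0 lower.

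Genes of primitive blood were mostly too low to test: 6 of the 16 in the list were tested and 0 of them were called with 2-DG by edgeR (median log2 fold change 0.11; with the passage as a block 2 were higher and 1 lower). At an unadjusted p under 0.05, 1 of the 6 passed, Alas2, an enzyme of haem synthesis (log2 fold change -0.57 ± 0.26, adjusted p = 0.152 in the edgeR fit). The embryonic globin genes Hba-x and Hbb-bh1 had 0 counts in the libraries of 1× glucose and 2-DG. By counting error alone, a 0 leaves room for an expected count of up to 3 per library. The erythroid factor Gata1 had 0 to 3 counts.

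Of 12 upstream mesoderm factors, all were tested and 2 were lower with 2-DG, 0 higher (median log2 fold change -0.36; with the passage as a block 5 lower and 0 higher). Of all genes, 8.51% were lower, and 20.2% with the block. They were Mixl1, a homeobox factor of the primitive streak (-3.89 ± 0.42, edgeR adjusted p = 3.20e-04), and T (Brachyury; -1.57 ± 0.36, adjusted p = 0.0136). Mixl1 was at 5.75 ± 1.84 CPM in 1× glucose and at 0.384 ± 0.176 CPM with 2-DG. Mesp1, a factor of early cardiovascular mesoderm, was at 20.1 ± 11.9 CPM and 25.8 ± 6.38 CPM. The summed level of the list was 646 to 727 CPM in 1× glucose and 258 to 470 CPM with 2-DG. Its largest parts in 1× glucose were T (225 ± 84.6 CPM) and Tbx6 (224 ± 34.3 CPM).

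Some of the 8 genes are shared with other cell types, and some markers of these were called with 2-DG too, where 9.12% of all genes were higher and 8.51% lower (21.1% and 20.2% with the passage as a block). Of 14 pluripotent and germ cell genes that can share Pecam1, 13 were tested and 2 were higher and 1 lower with 2-DG (with the passage as a block 7 higher and 3 lower), and their summed level was 64.6 to 102 CPM in 1× glucose and 94.7 to 127 CPM with 2-DG. These were Tfap2c (1.58 ± 0.28, edgeR adjusted p = 0.00445) and Tfcp2l1 (1.05 ± 0.27, adjusted p = 0.0244), both higher, and Dppa5a (-1.01 ± 0.21, adjusted p = 0.00836). Of 10 interneuron genes that can share Gata2 and Tal1, 8 were tested and 1 was called, Lhx5, lower (-2.19 ± 0.33, edgeR adjusted p = 0.00176). With the passage as a block 4 were higher and 2 lower. Summed levels were 87.4 to 202 CPM in 1× glucose and 136 to 205 CPM with 2-DG. The largest parts of these sums were Lmo4 (79.0 ± 22.1 and 99.1 ± 11.9 CPM) and Lhx1 (63.5 ± 44.2 and 69.3 ± 26.1 CPM). Of 9 surface ectoderm and trophoblast genes, 7 were tested and 3 were higher (with the passage as a block 5 higher and 0 lower). They were Tfap2c, which is also in the pluripotent and germ cell list, the keratin gene Krt18 (0.87 ± 0.22, edgeR adjusted p = 0.0244) and Dlx5 (1.35 ± 0.41, adjusted p = 0.0463). Summed levels were 18.0 to 27.1 CPM in 1× glucose and 31.2 to 39.0 CPM with 2-DG. In passage 16 against 13, where Pecam1 was lower, 3 of the 13 pluripotent and germ cell genes were lower and 2 higher. The part of these cells in the levels of Pecam1, Gata2 and Tal1 was not tested. Nor was the part of early mesoderm and other tissues in the level of Lmo2.

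The genes whose log2 CPM over the 12 libraries followed each of the 7 tested genes most closely were listed as a description, by Pearson correlation, with libraries that share passages and treatments. Kdr was followed by Gm9899 (0.978), Disp1 (0.976) and Flt1 (0.971). Lmo2 was followed by Gm38515 (0.998), Ccn1 (0.992) and the calponin gene Cnn2 (0.991). Etv2 was closest to Ogg1 (0.977), Zfp239 (0.963) and Trh (0.946), and Tal1 to Tns4 (0.960), Chmp1a (0.958) and Rhoj (0.943). For Gata2, Cdh5 and Pecam1 the closest were Shox2 (0.890), Alg11 (0.930) and Fzd9 (0.928). Over the 9 glucose libraries, Lmo2 correlated at -0.65 with Kdr, -0.55 with Tal1, -0.83 with Cdh5 and -0.59 with Gata2. With Etv2 it was at -0.18 and with Pecam1 at 0.48. Kdr correlated with Tal1, Cdh5 and Gata2 at 0.93, 0.87 and 0.93 there. Over all 12 libraries, Lmo2 was at 0.60 with Kdr and 0.40 with Tal1. Without 2-DG, Lmo2 thus did not follow Kdr and Tal1.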

How the data were processed

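PolyA RNA of 12 gastruloid libraries was analysed, 3 per treatment and 1 of each per ES cell passage. The authors deposited, per library, estimated counts of 120312 RefSeq transcripts, all whole numbers (mm10, Trim Galore, HISAT2, SAMtools, Picard and StringTie per the submitters' processing notes, which also name DESeq2; versions are not given in the sources used here). StringTie apportions reads between transcripts, so counts per transcript are less certain than gene sums. The authors' 3 tables of fold changes and p-values were not used. Transcripts were assigned to genes by the RefSeq table of GRCm38.p6, which named all of them, and summed.

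Counts passing edgeR's filterByExpr were fitted in 1 model of the 4 treatments (edgeR 4.0.16, R 4.3.3, quasi-likelihood F test, TMM, two-sided, Benjamini-Hochberg over all tested genes, threshold 0.05). Standard errors come from the F statistic, CPM from effective library sizes, and correlations from log2 CPM with a prior count of 2. Passages were tested with treatment as a term. The labels give libraries of 1 passage the same passage number, and a shared cell source was assumed from it. On that assumption the passage served as a replicate block. Deviations from group means correlated at 0.0963 to 0.623 across genes within passages and at -0.440 to 0.191 between them, ranges that overlap. With the block, 7001 genes were called for 2-DG against 1× glucose. P-values measure the spread between these libraries. Counting intervals (95%, exact) cover counting error only.

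Named genes are the 8 described, the called genes of each list (at most 4 by lowest p) and the 3 closest correlates per gene. Genes given as examples after their values were seen were Fli1, Sox17, Myb, Erg, Sox7, Runx1, Hhex, Flt1, Emcn, Vegfa, Mesp1, Hba-x, Hbb-bh1, Gata1, Alas2 and Gm38515. The genes and lists were chosen with earlier results of these data known. Alternatives were no filter, median-of-ratios factors, DESeq2 1.42.0, the most abundant transcript alone, only the groups compared, the passage block, the passage test without the 2-DG libraries and leaving out each library. The treatment fit without the block and the passage fit were tested on simulated data. Changes were placed only in genes with higher counts than most of the 8 have. The fit with the passage block and the interaction fit were not tested in this way. Sequences are from RefSeq (GRCm38.p6).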

Additional observations from a re-analysis of the deposited data

Results flagged for a closer look

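The log2 fold change of Lmo2 with 2-DG passed the test of a difference between ES cell passages in the interaction fit of 2-DG and passage (edgeR, adjusted p = 0.0220). It did not pass without the 1× glucose library of passage 16 (adjusted p = 0.0612). The spread in this fit comes from the glucose libraries alone, and the single 2-DG library of each passage is assumed to vary like them. Log2 fold changes against the 3 glucose libraries of the same passage were -3.99 ± 0.22, -2.53 ± 0.20 and -1.95 ± 0.18 in passages 13, 15 and 16, lower in all 3. The 2-DG library of passage 13 had 142 Lmo2 counts, that of passage 15 had 289 and that of passage 16 had 500. Each passage holds 1 library with 2-DG, so an effect of the passage and one of that library cannot be told apart. The fit was chosen after the data were seen.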

How the results depend on the processing

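Over 143 results, 1978 alternative values were computed, and 48 had the opposite direction, 3 of them for results past the threshold. With the passage as a replicate block, the genes called were 7001 for 2-DG against 1× glucose and 7305 against 0×, and 5 of the 7 tested genes were called in each. The most abundant transcript alone gave 653 and 775 genes and 0 of the 7, 2 genes for 3× against 1×, 1879 genes and 1 of the 7 between passages, and 247 genes for the 2-DG effect by passage. DESeq2 called 11 genes for 0× and 2 for 3× against 1×, and 215 for the effect by passage. With only the groups compared, 1896 genes were called for 2-DG against 1× and 0 for 0× against 1×. The cause of these shifts was not tested.

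Values of opposite direction (log2 fold changes) from the most abundant transcript were -0.16 for Gata2 and 0.78 for Ldb1 (2-DG against 1×), 0.65 for Ldb1 (2-DG against 0×), 0.17 for Etv2 (0× against 1×), -0.085 for Lmo2 (3× against 1×), 2.38 for Etv2 (passage 15 against 13), -0.17 for Tal1 and 0.069 for Lmo2 (16 against 13), and -1.50 for Tal1 (16 against 15). Without the libraries of passage 13, Gata2 gave -0.17 with 2-DG against 1× and Etv2 0.16 at 0×. Without a filter, Lmo2 gave -0.0023 at 3×, and DESeq2 gave 0.10 for Lmo2 in passage 16 against 13.

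Leaving out 1 library at a time gave 1734 to 2352 genes and 1 to 2 of the 7 for 2-DG against 1×, 2051 to 2619 genes and 1 to 3 of the 7 for 2-DG against 0×, 1 to 3 genes for 0× against 1×, 3 to 7 of the 7 between passages, and 30 to 82 genes and 0 to 1 of the 7 for the effect by passage. Of log2 fold changes, Gata2 ranged from -0.41 to 0.31 with 2-DG against 1× and from -0.76 to 0.060 against 0×. For 0× against 1×, Kdr ranged from -0.047 to 1.1, Etv2 from -0.59 to 0.18, Tal1 from -0.81 to 0.79, Lmo2 from -0.13 to 0.33, Gata2 from -0.032 to 0.63, Cdh5 from -0.93 to 1.02 and Pecam1 from -0.49 to 0.12. For 3× against 1×, Kdr ranged from -0.91 to 0.36, Etv2 from -0.29 to 0.29, Tal1 from -1.51 to 0.13, Lmo2 from -0.12 to 0.18, Gata2 from -0.38 to 0.23 and Pecam1 from -0.22 to 0.34. Lmo2 ranged from -0.31 to 0.17 in passage 16 against 13, and Cdh5 from -2.86 to 1.64 in its difference of effects between passages.

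The levels of Gata2, Sox18, Cdh5 and Pecam1 rest on at most 46 counts per library, which limits what can be detected for them.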
